A study of Rattus norvegicus with 18 samples.

Results

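Postsynaptic scaffold genes and the CaMKII genes were followed in cultured neurons in which CHD5, a neuronal chromatin remodeling ATPase, was targeted by shRNA. The members were fixed as 9 genes by name: the PSD-95 family genes Dlg2 and Dlg4, Dlgap1, the Shank genes Shank1, Shank2 and Shank3, Homer1, and the kinase subunit genes Camk2a and Camk2b. A member was found where the gene symbol of an array probe equalled its name, and for a gene with more than 1 probe the brightest on average was used. Of the 9 genes, 6 matched a probe, 5 of these passed the filter on low signal described below, and 3 were detected on all 18 arrays. Dlg2, Shank3 and Homer1 matched no symbol and are not analysed here.

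The cells were primary cortical neurons from rat embryos. On day 1 of culture they received for 6 hours a pLKO.1 lentivirus that carried either CHD5 shRNA or a scrambled control shRNA, and RNA was harvested on days 5, 9 and 12. Each of the 6 groups (control and CHD5 shRNA on each day) had 3 replicates labelled a, b and c, which gave 18 Illumina rat arrays; all cultures were infected, and a single CHD5 shRNA sequence was used, so an effect of that sequence on other targets cannot be told apart from an effect of CHD5. The labels do not say whether replicates came from separate cultures or animals, so the p-values measure the spread between these arrays, which may be technical. The mRNA of Chd5 matched no symbol and is not analysed here, so the arrays give no check of the depletion.

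The postsynaptic density lies under the membrane of excitatory synapses. PSD-95, the product of Dlg4, binds glutamate receptors and adhesion molecules through its PDZ domains; the SAPAP protein encoded by Dlgap1 links PSD-95 to Shank proteins, and Shank and Homer proteins form a deeper layer that reaches the actin cytoskeleton. CaMKII is a holoenzyme of alpha (Camk2a) and beta (Camk2b) subunits that is activated by calcium-bound calmodulin, phosphorylates synaptic proteins and is required for long-term potentiation. In cortex the alpha subunit is known to increase during postnatal maturation, while the beta subunit is present earlier.

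Each probe is a 50-base oligonucleotide, and its first 30 bases (5′ to 3′, in lower case) are given for 5 of the 6 genes to show what the arrays measured. The positions are those of the array annotation, whose genome build is not given in the sources used here. Whether a probe lies in coding or untranslated sequence was not determined. The Dlg4 probe begins at base 2724 of its transcript (chr10:56890308-56890357, plus strand), the Dlgap1 probe at base 4116 (chr9:110018681-110018730, plus strand) and the Shank1 probe at base 6788 (chr1:94839788-94839837, plus strand). The Camk2b probe begins at base 1689 of its transcript on chromosome 14, minus strand, and its annotated position has 3 blocks. The Camk2a probe begins at base 1152 of its transcript. The 4 Shank2 probes were designed against 3 transcript variants: 2 against variant 2, at bases 3771 (the probe of highest mean signal) and 4449, 1 against variant 3 at base 45 and 1 against variant 4 at base 103.
Dlg4: tcttctcaaaggtggtttttggggggagac
Dlgap1: gggtgggaaggaattggttctgttagtttc
Camk2b: tgagagctgcgcctggtttcaccggacaga
Shank1: gcaagaggtgggcagctgacacaagactgc
Shank2, variant 2, base 3771: cgccaacggaattgagcaaagagattctgc
Shank2, variant 2, base 4449: gatggcatgtgggaccctctcctcctgtgg
Shank2, variant 3: tgcatccccagtgcctgctgctggctcgtg
Shank2, variant 4: ggcactgctcacatgaggatcaccgccaga

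Signals are mean bead intensities in arbitrary units, deposited without normalization or background subtraction. A probe was taken as detected on an array where its detection p-value, set against the negative control beads, was at most 0.02. The lowest signal that was detected lay between 79.6 and 119 depending on the array, and a probe was kept for testing when it was detected on at least 1 array (11079 of 22523 probes). Levels were normalized by a Z-transformation of the log2 signals within each array and rescaling to a common spread, so they are on a log2 scale on which 0 is the mean of the kept probes. Because no background was subtracted, differences of dim probes are compressed. The day 9 control array of replicate b stood apart, with a mean signal of 134.8 against 400.2 to 789.3 on the other 17 arrays and a log2 SD of 1.11 against 1.72 to 2.02. The day 9 differences of the members detected on any array of that day are given with and without it. Of 9 neuronal marker genes with a probe (among them Tubb3, Syt1 and Stmn2) all 9 were detected in every group, as were the interneuron markers Gad1 and Sst and the oligodendrocyte lineage marker Olig1, so markers of neurons and of glial cells were both measured. The vesicular glutamate transporter Slc17a7, a marker of mature excitatory neurons, was detected on 4 arrays and Slc17a6 on all 18.

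CHD5 shRNA did not produce a called difference in any of the 5 tested members on any day. Camk2b, Dlg4, Dlgap1, Camk2a and Shank1 all stayed above an adjusted p of 0.05 at days 5, 9 and 12 (limma, Benjamini-Hochberg adjustment over 11079 probes, n = 3 arrays per group), and none had an unadjusted p under 0.05. The count was thus 0 of 5 on each day, beside 0.0451% of all kept probes called higher and 0.126% called lower at day 5, 3.65% and 2.25% at day 9 and 3.24% called lower and 2.23% called higher at day 12. A share of 0 of 5 is near this background and is no result about the members. The intervals of the differences, given for each gene below, say how large a difference on the normalized log2 scale the arrays could still hold. Their spread was estimated over all 6 groups together, so the day 9 control array of low signal also enters the intervals of days 5 and 12. For Dlg4 the SD of the normalized levels was 0.41 in control at day 9. At day 12 it was 0.06 in control and 0.01 in CHD5 shRNA cultures. For the dim genes that scale is compressed, as no background was subtracted.

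Camk2b, the beta subunit of CaMKII, was detected on all 18 arrays. At day 5 its signal was 5163, 3748 and 4177 in control replicates a, b and c and 4167, 4270 and 3552 in the CHD5 shRNA replicates. At day 9 it was 3484, 547 and 2333 in control and 3514, 2261 and 3047 in CHD5 shRNA cultures. At day 12 it was 3489, 3313 and 3264 in control and 3962, 3036 and 3026 in CHD5 shRNA cultures. The value of 547 is from the array of low signal; on every day the groups overlapped. On the normalized log2 scale CHD5 shRNA minus control was -0.10 ± 0.15 (SE) at day 5 (95% interval -0.42 to 0.22), 0.24 ± 0.15 at day 9 (-0.08 to 0.55, limma adjusted p = 0.403) and 0.09 ± 0.15 at day 12 (-0.23 to 0.41). At day 9 the difference became 0.39 without control replicate b, with an adjusted p of 0.0809 (limma; 0.0809 to 0.73 over the 17 alternatives). A difference at day 12 beyond 1.32-fold higher or below 0.851-fold would lie outside the interval.

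Dlg4, which encodes PSD-95, was detected on all 18 arrays but was dim, between 84.7 and 142. Day 5 gave 133, 117 and 141 in control and 141, 142 and 121 in CHD5 shRNA cultures. Day 9 gave 104, 84.7 and 111 in control and 122, 116 and 124 in CHD5 shRNA cultures. Day 12 gave 121, 126 and 132 in control and 139, 131 and 129 in CHD5 shRNA cultures. After normalization the groups overlapped at days 5 and 9, and at day 12 the 3 CHD5 shRNA arrays (-1.30, -1.28 and -1.28) lay above the 3 control arrays (-1.45, -1.34 and -1.41). The difference was 0.07 ± 0.14 (SE) at day 5, 0.02 ± 0.14 at day 9 and 0.11 ± 0.14 at day 12 (95% interval -0.19 to 0.42, limma adjusted p = 0.876). Without control replicate b the day 9 difference was 0.25, with an adjusted p of 0.145 (limma).

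Dlgap1, the SAPAP adaptor between PSD-95 and Shank, was detected on all 18 arrays. At day 5 the signals were 587, 471 and 412 in control and 467, 548 and 369 in CHD5 shRNA cultures. At day 9 they were 475, 110 and 311 in control and 339, 289 and 330 in CHD5 shRNA cultures. At day 12 they were 532, 467 and 541 in control and 552, 500 and 482 in CHD5 shRNA cultures. Raw signals overlapped on each day. On the normalized scale the CHD5 shRNA arrays of day 12 (0.65, 0.67 and 0.64) all lay above the control arrays (0.63, 0.55 and 0.59), by a difference of 0.06 ± 0.12 (SE, 95% interval -0.19 to 0.31, limma adjusted p = 0.947). It was -0.06 ± 0.12 at day 5 and 0.08 ± 0.12 at day 9. The day 9 value changed sign to -0.09 without control replicate b and was not called either way.

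Camk2a, the alpha subunit of CaMKII, was close to the detection limit, with 13 of 18 arrays detected. Control replicates gave 120.5, 100.4 and 116 on day 5 (3 detected), 113, 72.5 and 93.9 on day 9 (2 detected) and 119.8, 134 and 148 on day 12 (3 detected). CHD5 shRNA replicates gave 110.3, 123 and 94.6 on day 5 (1 detected), 103, 104 and 102 on day 9 (1 detected) and 127, 128 and 117 on day 12 (3 detected). The groups overlapped on each day. CHD5 shRNA minus control was -0.02 ± 0.10 (SE) at day 5, -0.06 ± 0.10 at day 9 and -0.07 ± 0.10 at day 12, where the 95% interval ran from -0.29 to 0.15. The day 9 value was 0.07 without control replicate b.

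Shank1 passed the filter through day 5, where 1 control and 2 CHD5 shRNA arrays were detected; at days 9 and 12 it was detected on 0 of 3 arrays in each group, so no fold is given there. Its signals at day 9 were 83.7, 64.8 and 84.9 in control and 96.1, 90.6 and 96.3 in CHD5 shRNA cultures, and the groups overlapped after normalization (limma adjusted p = 0.688). Those at day 12 were 79.4, 84.5 and 98.6 in control and 105, 101 and 93.5 in CHD5 shRNA cultures. After normalization the 3 CHD5 shRNA arrays of day 12 lay above the 3 control arrays, and limma's adjusted p was 0.384. It was 0.0201 with array weights and 0.0355 with a fit to the arrays of day 12 alone, and lay between 0.0201 and 1 over the 17 alternatives (limma). At day 5 the difference was 0.15 ± 0.12 (SE), with a 95% interval of -0.09 to 0.40. Shank2 was detected on 0 of 18 arrays by any of its 4 probes. The Shank2 signals lay between 61.2 and 87.0, and the smallest detection p-value among them was 0.175, so its level was not well above background and no difference is given.

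**Figure D1:**
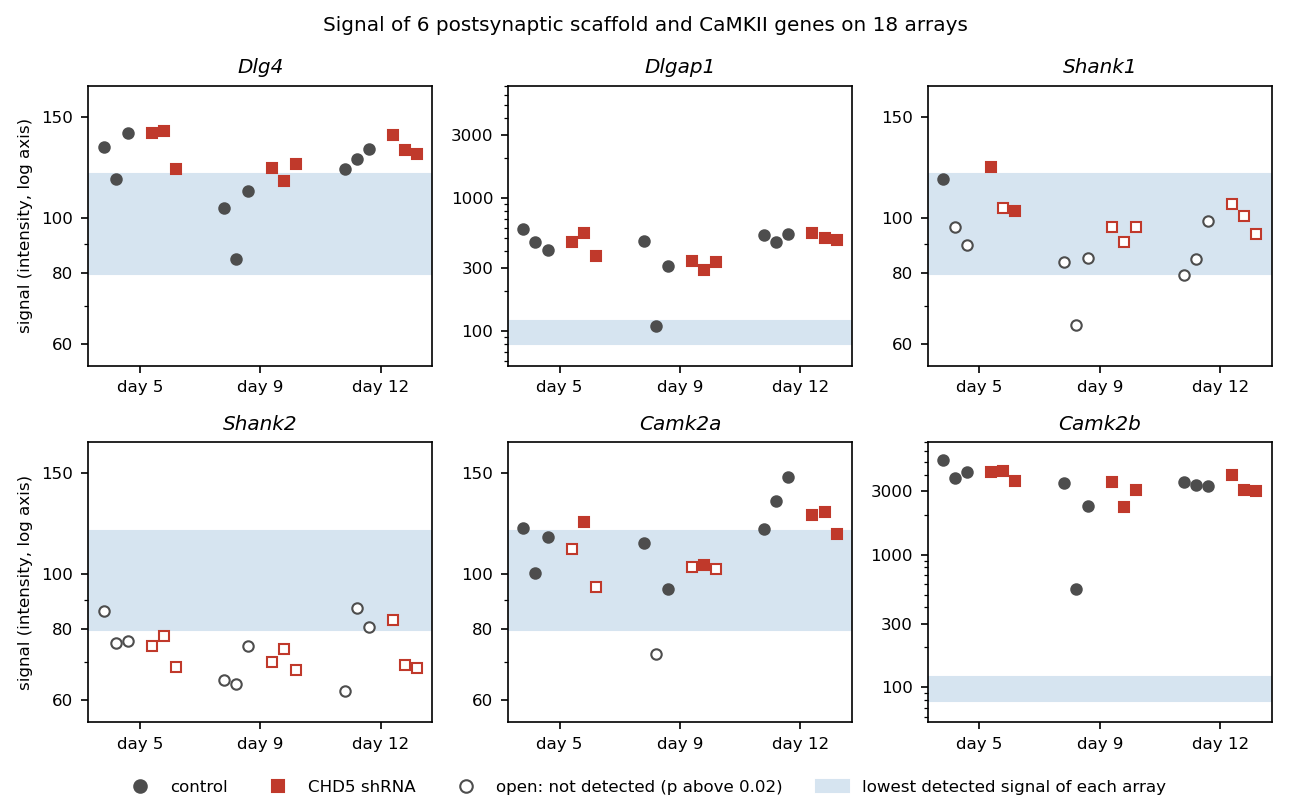
Deposited signal of 6 genes (vertical log axis, intensity units) on 18 arrays at days 5, 9 and 12; grey circles are control arrays and red squares CHD5 shRNA arrays, in the order a, b, c, open where not detected, and the blue band spans the lowest detected signal of the arrays (79.6 to 119). Camk2b and Dlgap1 lay above the band on all arrays but the day 9 control array of replicate b for Dlgap1, while Dlg4, Camk2a and Shank1 lay in it, just above it or, on some arrays for Camk2a and Shank1, just below it, and Shank2 lay at or below its lower part.

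The groups did not overlap for 3 of the 5 tested members at day 12 (Dlg4, Dlgap1 and Shank1, all higher with CHD5 shRNA), for 0 at day 9 and for 0 at day 5. Shank1 was detected on 0 arrays of either group at day 12, so its separation is between signals at background level. Among all kept probes the groups did not overlap for 38.2% at day 12, 20.6% at day 9 and 11% at day 5. For Dlg4 and Dlgap1 the gap was less than 0.1 on the log2 scale between nearest arrays. The median difference of the 5 members, Shank1 included, was -0.02 at day 5, 0.08 at day 9 and 0.09 at day 12. Over all kept probes it was 0.01, -0.02 and 0.01.

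**Figure D2:**
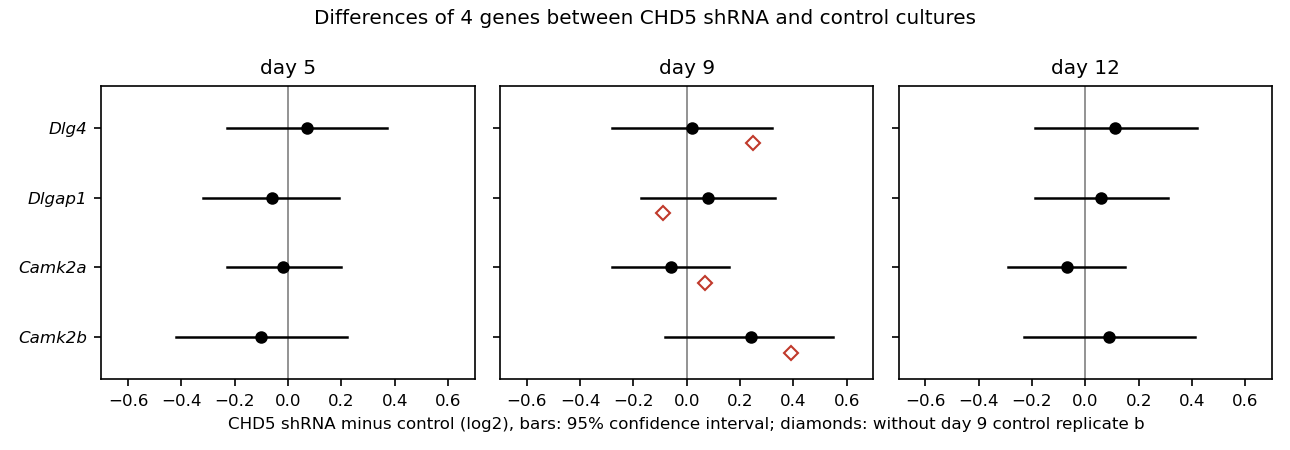
CHD5 shRNA minus control (horizontal axis, normalized log2) for Dlg4, Dlgap1, Camk2a and Camk2b at days 5, 9 and 12; points are limma estimates from 3 against 3 arrays, bars their 95% confidence intervals, and diamonds the day 9 estimate without control replicate b. Each of the 12 intervals includes 0, and the diamonds lie on the other side of 0 from the point for Dlgap1 and Camk2a.

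The effect of CHD5 shRNA on the members did not change detectably between days. For the change of the effect from day 5 to day 12, 0 of 5 members were called, beside 0.153% of kept probes, and the members' values lay between -0.05 and 0.19. From day 5 to day 9 and from day 9 to day 12 no member was called and neither was any kept probe (0% in each). The widest value was that of Camk2b from day 5 to day 9, at 0.34 ± 0.21 (SE, 95% interval -0.11 to 0.79, limma adjusted p = 0.826). It was 0.50 without the day 9 control array of low signal (limma adjusted p = 0.244).

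Time in culture gave called differences in Camk2a and Dlgap1. Camk2a rose in control cultures from a normalized level of -1.66 ± 0.10 (SD, n = 3) at day 5 to -1.32 ± 0.13 at day 12, a difference of 0.33 ± 0.10 (SE; 1.26-fold, 95% interval 1.08 to 1.47, limma adjusted p = 0.0261). The control arrays of day 12 (-1.47, -1.25 and -1.25) lay above those of day 5 (-1.73, -1.70 and -1.54). Raw signals of days 5 and 12 overlapped in both cultures. They were 100.4 to 120.5 and 119.8 to 147.8 in control, and 94.63 to 123.3 and 117.2 to 128.3 in CHD5 shRNA cultures. On the normalized scale Camk2a in CHD5 shRNA cultures was -1.67 ± 0.04 at day 5 and -1.39 ± 0.06 at day 12, again without overlap. That difference, 0.28 ± 0.10, had an adjusted p of 0.0761 (limma; 0.000522 to 0.237 over 18 alternatives, 6 of which called it). Of the 6 arrays compared in control cultures, leaving out replicate a or b of day 5 or replicate b or c of day 12 each ended the call, with values of 0.29 to 0.31 and adjusted p of 0.0866 to 0.102 (limma). With background correction (neqc) the rises were 0.55 in control and 0.46 in CHD5 shRNA cultures, with adjusted p of 0.00704 and 0.0272 (limma). Over the 18 alternatives the adjusted p in control cultures ran from 0.00246 to 0.126, and 13 called it.

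Dlgap1 rose between days 9 and 12. In control cultures it went from 0.34 ± 0.10 (SD, n = 3) at day 5 to 0.10 ± 0.31 at day 9 and 0.59 ± 0.04 at day 12. In CHD5 shRNA cultures it went from 0.28 ± 0.08 to 0.18 ± 0.09 and 0.65 ± 0.01. On the normalized scale the arrays of day 12 lay above those of both earlier days in each culture. Raw signals of days 5 and 12 overlapped in each culture. They were 411.6 to 587.1 and 466.6 to 541.3 in control, and 368.8 to 548.3 and 482 to 552.2 in CHD5 shRNA cultures. In control the raw signals of day 9 (109.8 to 474.9) also overlapped those of day 12. The differences that follow are on the normalized scale. From day 9 to day 12 the difference was 0.49 ± 0.12 (SE) in control (limma adjusted p = 0.026) and 0.47 ± 0.12 in CHD5 shRNA cultures (adjusted p = 0.0635). From day 5 to day 12 it was 0.38 ± 0.12 in CHD5 shRNA cultures (1.30-fold, 95% interval 1.09 to 1.55, limma adjusted p = 0.0377) and 0.25 ± 0.12 in control (adjusted p = 0.152). The call from day 5 to day 12 in CHD5 shRNA cultures was lost when any 1 of its 6 arrays was left out, with values of 0.33 to 0.40 and adjusted p of 0.0684 to 0.133 (limma). From day 9 to day 12 in control cultures it was lost without replicate a, b or c of day 12 (0.47 to 0.51, adjusted p of 0.0633 to 0.116, limma). Over the alternatives the adjusted p ran from 3.12e-06 to 0.209 for the first of these differences and from 0.00174 to 0.495 for the second.

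Both genes were called in both cultures from day 5 to day 12 when the day 9 control array of low signal was taken out of the fit, a choice made after seeing the data. Without it, Dlgap1 rose from day 5 to day 12 by 0.26 in control (adjusted p = 0.0195, limma) and 0.38 in CHD5 shRNA cultures (adjusted p = 0.00131), and Camk2a by 0.34 (adjusted p = 0.00246) and 0.29 (adjusted p = 0.0109). Dlgap1 then rose from day 9 to day 12 by 0.33 in control (adjusted p = 0.0373, limma) and 0.48 in CHD5 shRNA cultures (adjusted p = 0.00114). The comparison of CHD5 shRNA with control still gave 0 of 5 members at each day, while of the 10891 probes tested without that array 162 (1.49%) were called at day 5, 1172 (10.8%) at day 9 and 1451 (13.3%) at day 12. From day 5 to day 12, 17.6% of the probes were called higher in control and 14.1% in CHD5 shRNA cultures, and from day 9 to day 12 the shares were 3.2% and 2.97%. With 5 members, 2 and 1 called are few to set against these shares, and nothing particular to the members is read from them.

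Camk2b, Dlg4 and Shank1 gave no called difference over time with all arrays and the normalization described above. Between days 5 and 12 Camk2b differed by -0.07 ± 0.15 (SE) in control and 0.12 ± 0.15 in CHD5 shRNA cultures, Dlg4 by 0.05 ± 0.14 and 0.10 ± 0.14. For Shank1 no fold is given, and its adjusted p was 0.526 and 0.845 (limma). From day 5 to day 9 Camk2a differed by 0.21 in control and 0.17 in CHD5 shRNA cultures, Camk2b by -0.12 and 0.22, Dlg4 by 0.17 and 0.12 and Dlgap1 by -0.24 and -0.10. From day 9 to day 12 Camk2a differed by 0.12 and 0.11, Camk2b by 0.05 and -0.09 and Dlg4 by -0.12 and -0.03. None of these steps was called. Without the day 9 control array of low signal the control values became 0.10, -0.28, -0.04 and -0.07 for Camk2a, Camk2b, Dlg4 and Dlgap1 in the first step, and 0.24, 0.21 and 0.10 for Camk2a, Camk2b and Dlg4 in the second, again with 0 called. Some alternatives did call a step in control cultures. Without control replicate a of day 9, Dlg4 differed from day 5 to day 9 by 0.37 (adjusted p = 0.0252, limma), Dlgap1 by -0.38 (adjusted p = 0.0119), and Shank1 from day 9 to day 12 had an adjusted p of 0.0492. With median centring Camk2b differed from day 5 to day 9 by -0.69 (adjusted p = 0.0481, limma). With neqc Camk2a differed from day 9 to day 12 by 0.54 (adjusted p = 0.0304, limma). In CHD5 shRNA cultures, array weights called Camk2a from day 5 to day 9, at 0.18 (adjusted p = 0.0409, limma). There Dlgap1 from day 9 to day 12 was called by 6 of 18 alternatives (adjusted p of 8.18e-07 to 0.423, limma). The range of the 6 group means was 0.24 for Camk2b and 0.19 for Dlg4, against 0.55 for Dlgap1 and 0.35 for Camk2a. The members called from day 5 to day 12 were thus 1 of 5 in control cultures (Camk2a, higher), beside 11.1% of kept probes called higher and 12.5% called lower, and 1 of 5 in CHD5 shRNA cultures (Dlgap1, higher), beside 8.46% and 8.56%. From day 9 to day 12 in control cultures 1 of 5 was called beside 4.16% of kept probes. In the other steps 0 of 5 were called, beside 22% of kept probes from day 5 to day 9 in control, 9.33% from day 5 to day 9 in CHD5 shRNA and 1.37% from day 9 to day 12 in CHD5 shRNA cultures. These comparisons share arrays with each other and with the comparisons of CHD5 shRNA with control.

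**Figure D3:**
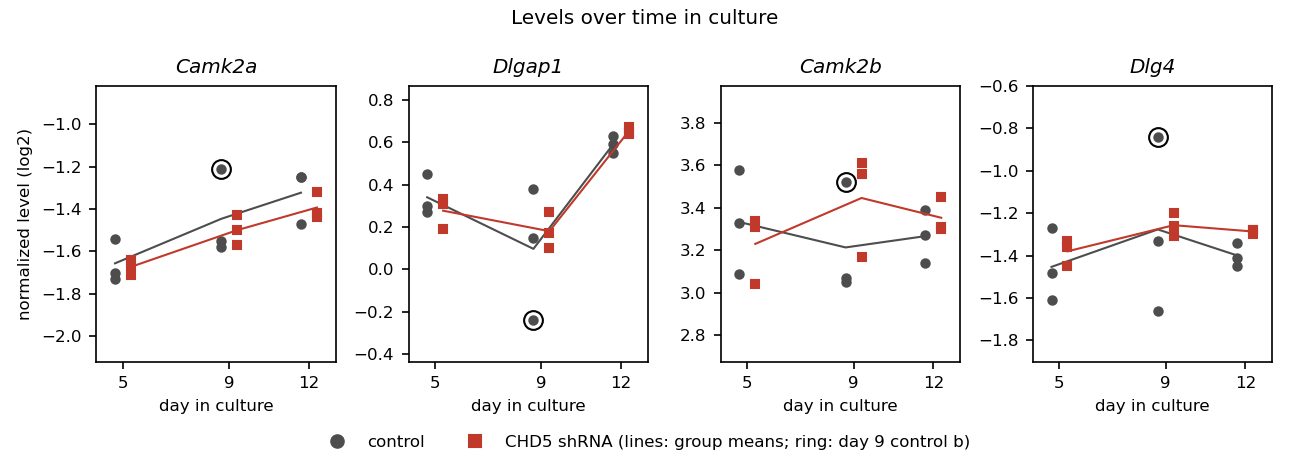
Normalized log2 level (vertical axis, the same span of 1.3 in each panel) of Camk2a, Dlgap1, Camk2b and Dlg4 against day in culture; symbols are arrays (grey circles control, red squares CHD5 shRNA), lines join group means, and the ring marks the day 9 control array of low signal. Camk2a lay higher at day 12 than at day 5 and Dlgap1 higher at day 12 than at days 5 and 9 in both cultures, while Camk2b and Dlg4 overlapped between days in control cultures.

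Markers of glia moved strongly over the same days. All 7 kept astrocyte markers (among them Gfap, Aqp4, Slc1a3 and S100b) rose from day 5 to day 12 in both cultures, with a median of 2.39 in control and 2.09 in CHD5 shRNA cultures, and the summed signal of the 7 went from 8547 to 14175 at day 5 to 41723 to 47015 at day 12 in control and from 6357 to 9851 to 22775 to 25988 in CHD5 shRNA cultures. Of 8 oligodendrocyte lineage markers, 7 rose in control and 6 in CHD5 shRNA cultures (medians 0.90 and 0.83). Neuronal markers had medians of 0.01 and 0.19, with 1 of 9 called higher in each culture and 1 of 9 lower in control. Of 5 excitatory neuron markers, 4 fell in control and 3 in CHD5 shRNA cultures and 1 rose in each (medians -0.68 and -0.50). In RNA of whole cultures, fewer cells of a type and less RNA per cell cannot be told apart, and the part of these markers in the values of Camk2a and Dlgap1 was not tested.

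Astrocyte markers were lower with CHD5 shRNA. Of the 7, 5 fell at day 9 (median -1.19) and 4 at day 12 (median -0.83), with S100b at -1.28 at day 12, and 0 were called at day 5 (median -0.31). Without the array of low signal 5 fell at day 9 and 6 at day 12. Of 3 fibroblast markers 2 fell at each of days 9 and 12 (medians -0.55 and -0.59). Of 8 oligodendrocyte lineage markers 1 fell on each of these days (medians -0.17 and -0.18), and Npy, of 6 interneuron markers, fell on both days (medians -0.20 and -0.10). Tubb3 was the 1 of 9 neuronal markers called, higher at both days (medians 0.13 and 0.04), and of 5 excitatory neuron markers 2 rose at day 9, Slc17a6 among them, and 1 at day 12 (medians 0.41 and 0.09). No microglia or proliferation marker was called (2 and 3 genes kept, medians of -0.15 and -0.05 on day 9 and of -0.07 and -0.23 on day 12). Without the array of low signal the day 9 medians were -0.91 for astrocyte, -0.64 for fibroblast, -0.01 for oligodendrocyte lineage (1 higher and 1 lower), -0.10 for interneuron (2 lower), 0.16 for neuronal, 0.08 for excitatory neuron (1 higher), 0.08 for microglia and -0.25 for proliferation markers. At day 12 the fit without that array called 1 proliferation and 2 interneuron markers lower, and 2 excitatory neuron markers higher and 1 lower. The part of all these markers in the members' values was not tested.

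A list of 35 further genes, called postsynaptic density genes here, held other scaffolds, adaptors and spine regulators. It is not limited to excitatory synapses, as Gphn and Nlgn2 of inhibitory synapses are in it. Of the list 27 were kept, and CHD5 shRNA gave 0 called at day 5, 1 higher at day 9, and 1 higher and 1 lower at day 12. The median difference was -0.06, 0.00 and 0.00, beside 0.01, -0.02 and 0.01 over all kept probes. The called share of the list was 3.7% at day 9 and 7.41% at day 12, near the 5.89% and 5.47% of all kept probes called in either direction. Without the day 9 control array of low signal 1 was called higher at day 9, and 2 higher and 1 lower at day 12. Of all probes tested without it, 10.8% and 13.3% were called on these days. The gene that rose with all arrays was Ctnnd2, which encodes delta-catenin of the cadherin complex. Its signals at day 12 were 279, 290 and 316 in control and 517, 477 and 445 in CHD5 shRNA cultures, without overlap. The difference was 0.66 ± 0.13 (SE) at day 9 (limma adjusted p = 0.0066) and 0.76 ± 0.13 at day 12 (adjusted p = 0.0016). Sipa1l1, which encodes the Rap GTPase-activating protein SPAR that binds PSD-95, was lower at day 12 by a difference of -0.37 ± 0.10 (SE; adjusted p = 0.0352, limma), with 230, 221 and 245 in control and 201, 156 and 165 in CHD5 shRNA cultures. Relatives of the members in the list (Dlg1, Dlg3, Dlgap3, Dlgap4 and Homer2) were not called on any day: at day 12 Dlgap4 differed by -0.01, Dlg3 by 0.07, Homer2 by -0.18, Dlg1 by -0.25 (all CHD5 shRNA arrays lower) and Dlgap3 by 0.12 (all higher).

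In a list of 20 calcium and calmodulin genes all 20 were kept, and 0 were called at day 5, 2 higher and 2 lower at day 9, and 2 higher and 1 lower at day 12. The called share of the list was 20% at day 9 and 15% at day 12, beside 5.89% and 5.47% of all kept probes called in either direction. No set test was run, and nothing particular to the list is read from these shares. The medians were 0.00, 0.05 and -0.03. Nrgn, which encodes the calmodulin-binding neurogranin, gave 1319, 1426 and 1568 in control and 3149, 2326 and 2574 in CHD5 shRNA cultures at day 12, without overlap. The rise was 0.98 ± 0.15 (SE, limma adjusted p = 0.000765), and at day 9 it was 0.55 ± 0.15 (adjusted p = 0.0398). The protein kinase gene Camk1 rose by 0.49 ± 0.14 at day 9 (adjusted p = 0.0477, limma) and 0.52 ± 0.14 at day 12 (adjusted p = 0.0377). Pcp4, whose product binds calmodulin, gave 5669, 4204 and 5252 in control and 3581, 2593 and 2640 in CHD5 shRNA cultures at day 12. The difference was -0.67 ± 0.19 (SE, limma adjusted p = 0.0398), and at day 9 it was -1.26 ± 0.19 (adjusted p = 0.000875). Camk2d, the delta subunit of CaMKII, was at -0.35 ± 0.09 at day 9 (adjusted p = 0.0262, limma), where 2 of 3 control and 1 of 3 CHD5 shRNA arrays were detected, and differed by -0.16 at day 12. Without control replicate b at day 9, Nrgn was at 0.39 (adjusted p = 0.0735, limma) and Camk1 at 0.30 (adjusted p = 0.0875), neither of them called, while Pcp4, Camk2d and Ctnnd2 were called at -1.04, -0.36 and 0.70. The counts of the list without that array were 3 higher and 3 lower at each of days 9 and 12. Of all probes tested without it, 10.8% and 13.3% were called on these days.

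**Figure D4:**
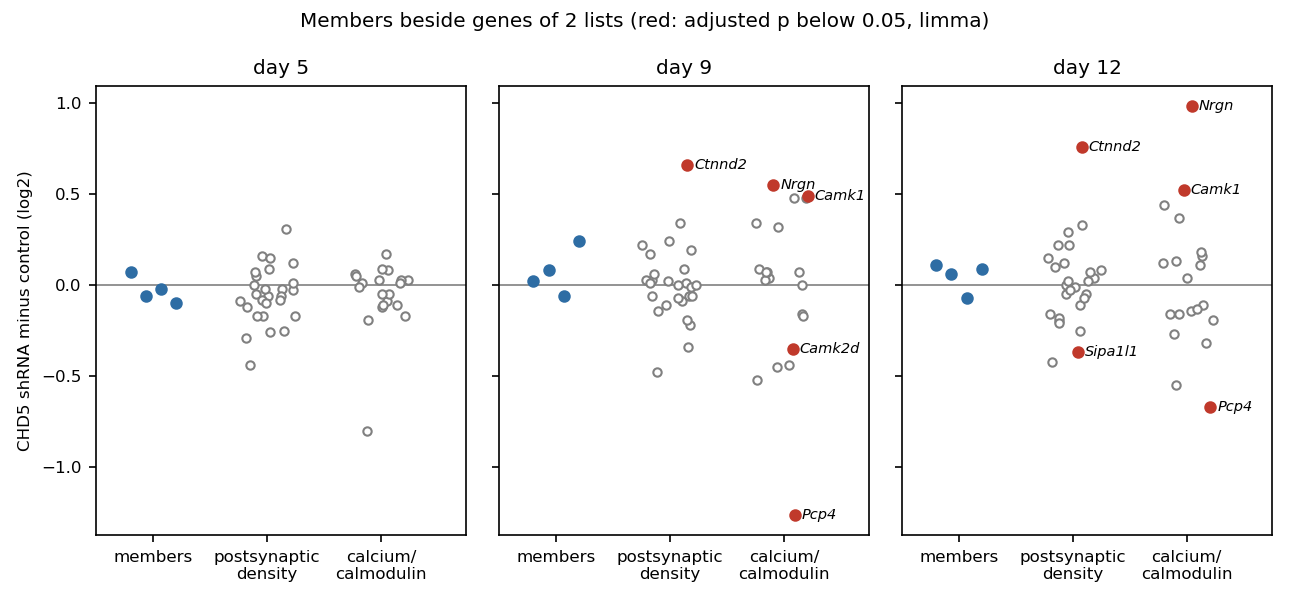
CHD5 shRNA minus control (vertical axis, normalized log2) at days 5, 9 and 12 for 4 members (blue; Shank1 is left out), 27 postsynaptic density genes and 20 calcium and calmodulin genes; each point is a gene, and red points have a limma adjusted p below 0.05. No gene was called at day 5, and Nrgn and Ctnnd2 lay highest and Pcp4 lowest at day 12.

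From day 5 to day 12, 5 of 20 calcium and calmodulin genes rose and 2 fell in control cultures (median 0.18) and 4 rose and 0 fell in CHD5 shRNA cultures (median 0.23), beside medians of -0.02 and -0.01 over all kept probes. The share that rose was 25% in control and 20% in CHD5 shRNA cultures, beside the 11.1% and 8.46% of all kept probes given above, and nothing particular to the list is read from it. In control cultures Camk2n1, an inhibitor of CaMKII, rose by 1.14 ± 0.30 (SE; adjusted p = 0.00959, limma), Ppp3ca, a calcineurin catalytic subunit, by 0.73 ± 0.16 (adjusted p = 0.00221) and Pcp4 by 1.18 ± 0.19 (adjusted p = 0.000115), with smaller rises of Camkv and Camk1d. Camk1 and Camk1g fell, with differences of -0.46 and -0.67. In CHD5 shRNA cultures Pcp4, Nrgn, Calm3 and Ppp3ca rose, by 1.30, 0.85, 0.71 and 0.59. Of the 27 postsynaptic density genes 3 rose and 5 fell in control (median -0.01) and 3 rose and 2 fell in CHD5 shRNA cultures (median -0.01). Baiap2, Lin7b and Abi1 rose and Lin7a fell in each; in control Dlgap4, Ctnnd2, Pick1 and Grip1 fell, and in CHD5 shRNA cultures Magi2 fell. Lin7a and Lin7b encode members of 1 family of small PDZ proteins and went opposite ways, with -1.05 ± 0.11 and 0.86 ± 0.12 (SE) in control cultures. Without the day 9 control array of low signal 8 rose and 2 fell in the calcium and calmodulin list in control and 7 rose and 2 fell in CHD5 shRNA cultures, and 4 rose and 9 fell and 5 rose and 4 fell in the postsynaptic density list. Of all probes tested without that array, 17.6% rose and 21.4% fell in control and 14.1% rose and 18.1% fell in CHD5 shRNA cultures. The genes of this paragraph were named after their values were seen.

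For the 3 members detected on all arrays, the genes whose normalized levels ran most alike over the 18 arrays were Cadm1 (Pearson r = 0.912) and LOC502770 (0.91) for Dlgap1, Eif4ebp2 (0.859) and Paf1 (0.813) for Camk2b, and Pappa (0.953) and LOC308742 (0.945) for Dlg4. These are descriptions over arrays that share days and cultures. With that day 9 control array left out (17 arrays) the values were 0.871 and 0.864 for Dlgap1, 0.858 and 0.811 for Camk2b and 0.899 and 0.891 for Dlg4. Dlg4 was then most like Nsg1 (0.925) and Ldb1 (0.915) and Camk2b most like Pold2 (0.872), so those rankings rest in part on that array, while the 2 genes most like Dlgap1 were the same.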

How the data were processed

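The authors summarized each array in GenomeStudio 1.1.1 (per the labels) and deposited, for each probe, the mean bead intensity without normalization or background subtraction and a detection p-value. Labelled RNA came from a kit that primes on poly(A). The 6 arrays of replicate a were deposited with a second measurement (correlation with the first 0.997 to 0.998), used only as an alternative. All 24 columns of signal were assigned, and 0 were left unused.

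Probes were kept if 1 or more arrays had a detection p-value no higher than 0.02 (11079, of which 11074 had a gene symbol). The log2 signals were Z-transformed per array, as in the study's methods, and rescaled by the average of the arrays' SDs. limma 3.58.1 (lmFit and eBayes, R 4.3.3) was fitted to the 6 groups, with Benjamini-Hochberg adjustment within a comparison over all kept probes and a limit of 0.05. Intervals are 95% confidence intervals, and the number of arrays limits their precision. The procedure was tested on simulated data with changes of known size between CHD5 shRNA and control. A log2 change of 0.5 was recovered for 47.8%, 52.2% and 43.3% of the changed probes at days 5, 9 and 12. A change of 1 was recovered for 92.5%, 94% and 94%. Of the calls 6.98%, 5.2% and 4.24% were false.

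The members, the lists and the tests were chosen with earlier results of these data known. The tested members are given by name against control and over time. Of the lists, at most 3 called genes with the largest difference per comparison of CHD5 shRNA with control are named, together with marker genes, and for members detected on all arrays the 2 most alike genes; Camk2d, called at day 9 beyond that number, and relatives of the members were named after their values were seen. List genes were matched by the array's symbol or the current RefSeq symbol, with the brightest kept probe for each gene. Pairing by replicate letter was checked through the correlation of deviations from the group means between arrays with the same letter: day 5 gave 0.268, 0.168 and 0.377, day 9 gave 0.426, 0.148 and -0.198, and day 12 gave 0.047, 0.153 and 0.014. Only at day 5 was every value above 0.1.

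The alternatives were quantile normalization, neqc (offset 16), median centring, 1 probe per symbol, detection required on all 3 arrays of a group or not at all, only the arrays compared, array weights (whose estimation stopped before the set tolerance in at least part of the fits), the second measurement of replicate a, a replicate block by letter or within the day, and leaving out each array. A fit without the day 9 control array of low signal was added after seeing the data. The slide of each array was not used here. Values of some marker genes are not reported here.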

Additional observations from a re-analysis of the deposited data

How the results depend on the processing

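No comparison of CHD5 shRNA with control at day 5 or day 9 called a member, nor did the change of that effect from day 5 to day 12, under any alternative run. At day 12 the count was 1 (Shank1, which was not detected on any array of that day) with only the arrays compared and with array weights, and 0 otherwise. From day 5 to day 12 in control cultures the count was 2 (Camk2a and Dlgap1) with quantile normalization, neqc, array weights and a fit that left out the dim day 9 control array. It was 0 with median centring, and 0 to 1 when 1 of the arrays compared was left out. In CHD5 shRNA cultures it was 2 (Camk2a and Dlgap1) with quantile normalization, neqc, array weights, only the arrays compared and a fit that left out the dim day 9 control array. There it was 0 with median centring and with the second measurement of replicate a, and 0 when any 1 of the arrays compared was left out. Without a detection filter it was 1, but Camk2a in place of Dlgap1. The cause was not tested. Over single members, 1089 alternative values kept their side of the threshold, 24 passed it and 20 lost it; none of the called values changed sign.

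With a replicate block by letter or within the day, from day 5 to day 12 the count was 1 in control and 1 in CHD5 shRNA cultures; the block changed no call in the comparisons of CHD5 shRNA with control either, where it was 0 on each day. Arrays of the same letter at day 5 had correlations of 0.168 to 0.377 in the check above. Arrays of unlike letters were not compared in it, so whether the letters are pairs is not settled. The alternative of a second kept probe gave no value, since Shank2, with 4 probes, had none kept. Signal over background limits Camk2a, Dlg4, Shank1 and Shank2.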
